A study of Mus musculus with 12 samples.

Results

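Transcripts of 5 genes, Cd163l1, Tmem176a, Tmem176b, Nrp1 and Pcsk1, were followed in naive CD8 T cells of Ikaros-mutant and wild-type mice before and after stimulation. The genes were picked by name, out of 12885 gene symbols in the deposited table, because their transcripts were far higher in resting mutant cells than in resting wild-type cells. The levels at 0 h are therefore given as a description, with no test, and tests were made only between stimulated cells. Results of the stimulated cells were also known when the genes were picked. Among 12726 tested genes ordered by the Zn4 minus WT difference at 0 h, Cd163l1 ranked 1, Tmem176b 2, Tmem176a 3, Nrp1 5 and Pcsk1 7. For comparison, 3.76% of the tested genes were called higher in Zn4 cells at 0 h, a share from which nothing is read here for genes chosen by that contrast.

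The cells were CD62L-high, CD44-low or negative CD8 T cells sorted from spleens of 6-week-old C57Bl/6 mice, labelled female. Zn4 cells came from homozygous Ikaros-Zn4 mutants (Ikaros-Zn4-/-), in which all cells of the animal carry the mutation, and WT cells from wild-type mice. Cells were either unstimulated (0 h) or stimulated by plate-bound anti-CD3 and anti-CD28 for 12 h or 24 h. There were 6 groups with 2 libraries each: Zn4 at 0 h, 12 h and 24 h and WT at 0 h, 12 h and 24 h. The labels do not say that replicates came from separate animals, so p-values measure the spread between these libraries, which may be technical.

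Ikaros, encoded by Ikzf1, is a zinc-finger protein of lymphocytes that binds DNA at sites with the core GGGAA and can recruit chromatin-remodelling and histone-deacetylase complexes. It is known as a repressor as well as an activator of lymphocyte genes. The 5 genes are not known as a common pathway. Cd163l1 encodes a surface protein with scavenger receptor cysteine-rich domains, known in mice from gamma-delta T cells. Tmem176a and Tmem176b encode related membrane proteins of the wider MS4A type, known from dendritic cells, macrophages and some lymphocytes. Nrp1 encodes neuropilin-1, a co-receptor for semaphorins and vascular endothelial growth factor that marks thymus-derived regulatory T cells in mice. Pcsk1 encodes proprotein convertase 1/3, which cuts prohormones in endocrine cells and neurons.

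Levels are given in RPKM, read numbers divided by the length of the gene and by the library total, so they can be set side by side between genes. Library totals ran from 24263907 to 33389808 reads. Ikzf1 stood between 90.9 and 139 RPKM in all 12 libraries and cannot show the mutation. The summed level of 6 markers of CD8 T cells (Cd8a, Cd8b1, Cd3d, Cd3e, Cd3g and Cd247) ran from 1090 to 1190 RPKM in the resting libraries. After stimulation it ran from 723 to 858 RPKM in Zn4 libraries and from 1140 to 1220 RPKM in WT libraries. Both Zn4 libraries and replicate 1 of WT at 12 h had summed Y-linked levels of 43.4, 21.0 and 38.9 RPKM, whereas the other 9 libraries had at most 0.0209 RPKM, although all are labelled female. The X-inactivation transcript Xist had 0.0258 RPKM in replicate 1 of Zn4 and 0.0023 RPKM in replicate 1 of WT at 12 h. Replicate 2 of Zn4 at 12 h, with Y-linked reads, had 24.3 RPKM of Xist, and the other 9 libraries had 27.2 to 82.7 RPKM. Replicate 1 of Zn4 at 24 h stood apart in Ccr7, a homing receptor of naive T cells, with 1280 RPKM against 466 RPKM in replicate 2, and 232 and 211 RPKM in WT cells at that time. In such bulk libraries, fewer cells that express a gene and less RNA per cell cannot be told apart.

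Tmem176a and Tmem176b lie next to each other on chromosome 6 in opposite directions, at chr6:48840919-48847071 on the plus strand and chr6:48833818-48841496 on the minus strand (GENCODE M21, GRCm38). Their exons share 81 bp on opposite strands, which is 2.13% of the exon length of Tmem176a and 3.42% of that of Tmem176b. The library kit keeps strand, but the strand setting used in counting is not given in the sources used here, so reads in these shared bases cannot be assigned with certainty. The start sites at 48841483 (Tmem176a) and 48841374 (Tmem176b) are 109 bp apart, and the 300 bp windows around these overlap by 208 bp. RefSeq has 2 start sites for Tmem176a and 3 for Tmem176b, and the windows of the 6 pairs share from 0 to 219 bp. Cd163l1 lies on chromosome 7, at chr7:140218267-140231145 on the plus strand. The windows below run from 250 bp before to 50 bp after a start site and are printed in the direction of the gene from RefSeq (GRCm38.p6). They are shown because the Tmem176 pair shared its pattern across the libraries, while Cd163l1 followed a different one after stimulation. Capitals mark GGGAA or its reverse complement TTCCC.
Tmem176a, chr6:48841233-48841532, plus strand: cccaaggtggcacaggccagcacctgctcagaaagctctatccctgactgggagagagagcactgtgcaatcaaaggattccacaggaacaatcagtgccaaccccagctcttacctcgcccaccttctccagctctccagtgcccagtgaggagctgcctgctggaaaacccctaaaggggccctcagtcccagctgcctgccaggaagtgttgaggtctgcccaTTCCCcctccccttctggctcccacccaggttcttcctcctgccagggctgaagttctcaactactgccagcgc
Tmem176b, chr6:48841325-48841624, minus strand: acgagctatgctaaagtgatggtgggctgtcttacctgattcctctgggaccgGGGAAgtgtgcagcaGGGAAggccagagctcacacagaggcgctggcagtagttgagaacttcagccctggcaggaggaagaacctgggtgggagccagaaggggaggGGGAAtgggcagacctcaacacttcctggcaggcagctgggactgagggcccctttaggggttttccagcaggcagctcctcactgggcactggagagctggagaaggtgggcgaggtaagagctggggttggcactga
Cd163l1, chr7:140218017-140218316, plus strand: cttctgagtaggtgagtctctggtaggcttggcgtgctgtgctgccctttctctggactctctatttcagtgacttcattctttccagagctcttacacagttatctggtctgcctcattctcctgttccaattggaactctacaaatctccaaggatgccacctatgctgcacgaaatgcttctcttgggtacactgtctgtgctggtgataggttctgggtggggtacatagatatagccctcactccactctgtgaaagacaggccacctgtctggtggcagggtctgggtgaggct
The Tmem176a window shown held GGGAA on either strand 1 time, the Tmem176b window 3 times and the Cd163l1 window 0 times. The other Tmem176a window held it 4 times, and both other Tmem176b windows 0 times. The 1 Cd163l1 window of the RefSeq table lies at the GENCODE start, while the RefSeq span of the gene begins at 140197218, around which no window was searched. Over all 32851 RefSeq windows of that length, 62.7% held GGGAA on either strand. The 8 windows of the 5 genes included 1 with the longer TGGGAA (reverse complement TTCCCA), which contains GGGAA, in a window of Tmem176a at chr6:48841406-48841705. All windows of that length held TGGGAA in 25.6%. The Nrp1 window held GGGAA 4 times and the Pcsk1 window 2 times. These are matches of letters only.

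**Figure D1:**
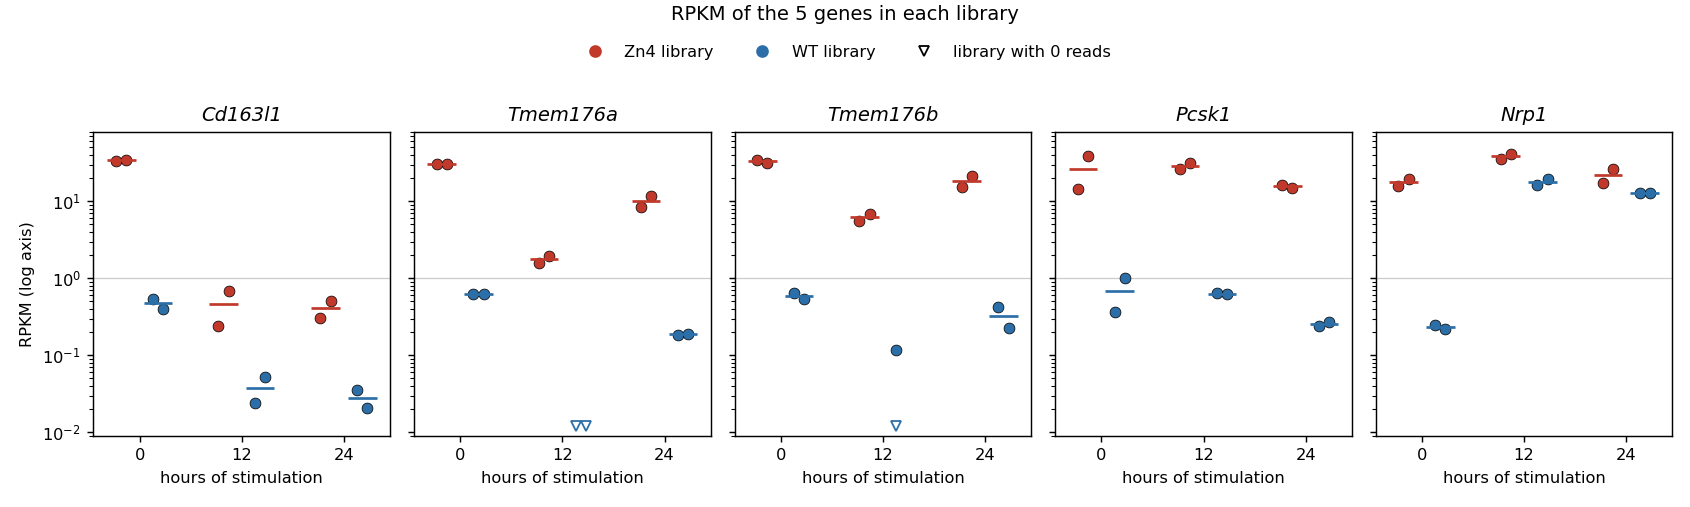
RPKM of the 5 genes on a log axis against hours of stimulation, 1 point per library, with bars at the mean of 2 libraries and triangles for libraries with 0 reads. At 0 h all Zn4 libraries lie between 14.5 and 38.4 RPKM and all WT libraries at 1.02 RPKM or below, and after stimulation Cd163l1 is below 1 RPKM in both genotypes while WT cells reach 12.7 to 19.3 RPKM of Nrp1.

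After stimulation the 5 genes parted into 3 patterns in Zn4 cells. Cd163l1 stood at 1.34% and 1.19% of its resting level at 12 h and 24 h, the Tmem176 pair was low at 12 h and higher again at 24 h, and Pcsk1 and Nrp1 ran from 59.1% to 218% of rest. WT cells had more than 10 RPKM of 1 of the 5 genes, Nrp1, and only after stimulation. Relative to WT cells of the same time, 4 of the 5 genes were called higher in Zn4 cells at 12 h, where 4.85% of all tested genes were, and 4 of 5 at 24 h, where 9.4% were. The gene not called at either time was Cd163l1. With the summed Y-linked level as a covariate the 12 h differences were 0.53 for Cd163l1, 1.48 for Tmem176a, 2.85 for Tmem176b, 1.18 for Nrp1 and 4.21 for Pcsk1, and the same 4 were called. Calls rest on limma's moderated test of log2(RPKM + 1) with Benjamini-Hochberg adjusted p under 0.05. Differences on this scale understate the change of genes near or below 1 RPKM, so ratios of levels with exact 95% Poisson counting intervals, from summed reads, are given beside them. These intervals cover counting error only.

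Cd163l1 had 33.6 and 34.6 RPKM in the 2 resting Zn4 libraries and 0.543 and 0.402 RPKM in the resting WT libraries, a ratio of 71.9. In Zn4 cells at 12 h it had 0.237 and 0.684 RPKM (23 and 65 reads), against 0.0238 and 0.0520 RPKM (2 and 6 reads) in WT cells. In Zn4 cells at 24 h it had 0.305 and 0.510 RPKM (27 and 44 reads), against 0.0358 and 0.0204 RPKM (3 and 2 reads) in WT cells. The stimulated Zn4 libraries were thus as low as the resting WT libraries, with which they overlapped, but lay above every stimulated WT library. Stimulated Zn4 cells held 1.34% of the resting Zn4 level at 12 h and 1.19% at 24 h, and WT cells held 8.47% and 5.80% of their own resting level at these times.

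The Zn4 level of Cd163l1 was 11.4 times the WT level at 12 h (95% counting interval 5.54 to 27.2) and 14.8 times at 24 h (6.04 to 46.9). Cd163l1 passed the filter of at least 1 RPKM in 2 libraries through its resting Zn4 libraries alone, and its stimulated libraries were all below 1 RPKM, where the log2(RPKM + 1) scale leaves little room for a call. On that scale the difference was 0.48 ± 0.15 (SE) at 12 h (limma adjusted p = 0.07) and 0.45 ± 0.15 at 24 h (adjusted p = 0.0659), neither past the threshold. The call depended on the scale: with a pseudocount of 0.1 RPKM the differences were 1.90 (adjusted p = 0.0116) and 1.96 (adjusted p = 0.00876), and limma-voom on the reads gave 3.27 (adjusted p = 0.0119) and 3.63 (adjusted p = 0.00823). Between 24 h and 12 h the level did not move past the threshold in Zn4 cells (−0.04 ± 0.15, adjusted p = 0.867). Leaving out replicate 1 of Zn4 at 12 h gave calls at 12 h (0.70, adjusted p = 0.0265) and at 24 h (0.45, adjusted p = 0.0312), and leaving out replicate 2 of Zn4 at 12 h gave a call at 24 h (0.45, adjusted p = 0.0313).

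The nearest listed genes on either side of Cd163l1 were likewise high in resting Zn4 cells and low after stimulation. Olfr524, annotated as an olfactory receptor gene 12.3 kb away on the opposite strand, had 12.8 and 16.4 RPKM in resting Zn4 cells and 0.111 and 0.232 RPKM in resting WT cells. After stimulation it had at most 0.295 RPKM in Zn4 cells and 0 reads in all 4 WT libraries. RefSeq (GRCm38.p6) draws Cd163l1 from 140197218 to 140231145, a span that covers its record of Olfr524 on the other strand, so reads of these 2 genes may not be fully separable. The other neighbour, 5830411N06Rik, lies 16.1 kb away and is also named Scart2 in RefSeq, as Cd163l1 is named Scart1. It encodes a second scavenger receptor protein of the same kind. It had 10.3 and 8.05 RPKM in resting Zn4 cells and 1.33 and 1.00 RPKM in resting WT cells.

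Both neighbours were below 1 RPKM in every stimulated library, so a call on this scale was hardly possible, and none was made. The Zn4 minus WT difference of Olfr524 was 0.14 at 12 h (limma adjusted p = 0.628) and 0.24 at 24 h (adjusted p = 0.289), and that of 5830411N06Rik was 0.22 (adjusted p = 0.421) and 0.38 (adjusted p = 0.116). As levels, 5830411N06Rik had 41 reads in Zn4 cells and 3 reads in WT cells at 12 h, and 70 and 7 reads at 24 h. The next listed genes were farther away. Paox (81.0 kb) and Mtg1 (67.5 kb) passed no test at 12 h or 24 h. Bet1l (622 kb) was higher in Zn4 cells at 24 h by 0.40 ± 0.10 (adjusted p = 0.0185), and Sirt3 (633 kb) was lower, by −0.58 ± 0.12 (adjusted p = 0.00839).

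**Figure D2:**
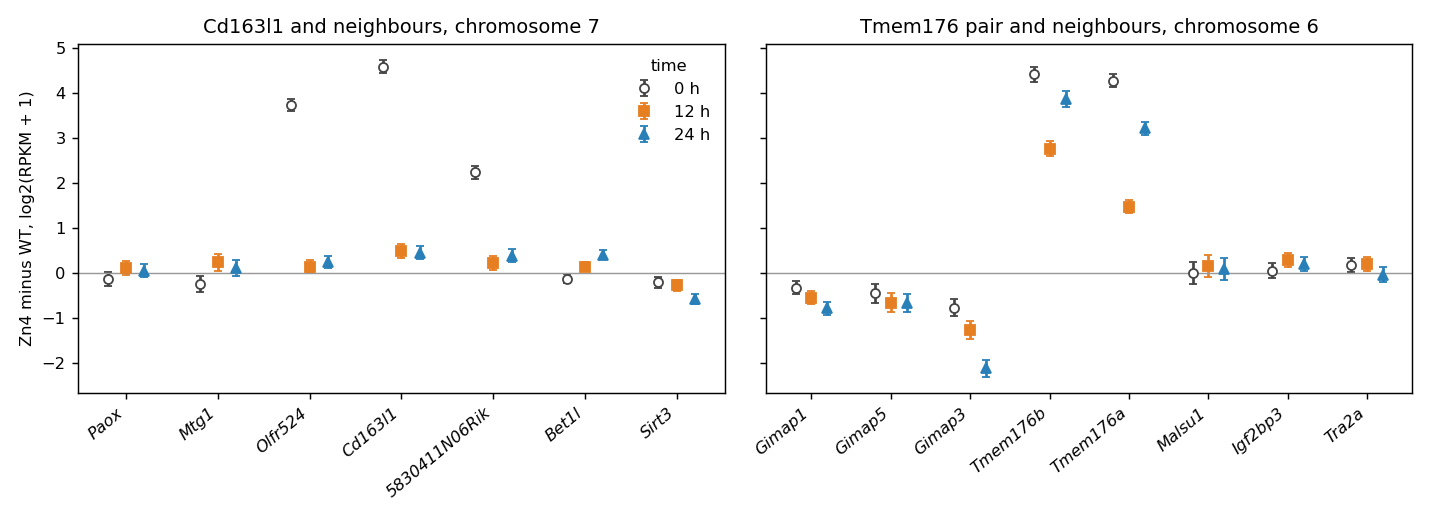
Zn4 minus WT difference of log2(RPKM + 1) at 0 h, 12 h and 24 h for the genes around Cd163l1 and around the Tmem176 pair, in chromosome order, with bars for the SE of the model. Olfr524 and 5830411N06Rik stand with Cd163l1 at 0 h and near 0 later, while Gimap3 next to the Tmem176 pair lies below 0, at −2.12 at 24 h.

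Since Cd163l1 and 5830411N06Rik are known from gamma-delta T cells, the other markers of those cells were read beside them. Of 12 markers besides the 5 genes, 5 were in the table, and their summed level in resting cells was 13.7 and 13.1 RPKM in Zn4 and 5.19 and 5.68 RPKM in WT libraries. The difference lay mostly in 5830411N06Rik. The receptor constant gene Tcrg-C1 had 1.03 and 0.930 RPKM in resting Zn4 cells and 0.905 and 1.10 RPKM in resting WT cells, and Tcrg-C4 had 0.771 and 1.61 RPKM in Zn4 cells and 1.52 in both WT libraries. Tcrg-C2 had a higher resting mean in Zn4 cells, at 1.94 against 1.67 RPKM in WT cells, with overlapping libraries. After stimulation the sum was 9.22 to 17.4 RPKM in Zn4 and 9.44 to 11.1 RPKM in WT libraries. Tcrg-C2 then had means of 1.87 RPKM in Zn4 and 0.982 RPKM in WT cells at 12 h, and 1.37 and 0.626 RPKM at 24 h. Tcrg-C1 and Tcrg-C4 had lower means in Zn4 than in WT cells at 12 h and higher ones at 24 h. The part of gamma-delta T cells in the Cd163l1 levels was not tested.

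Tmem176a had 30.3 RPKM in both resting Zn4 libraries, and 0.628 and 0.621 RPKM in the resting WT libraries. At 12 h it had 1.59 and 1.95 RPKM in Zn4 cells (50 and 60 reads), against 0 reads in both WT libraries, where 3 reads would be 0.110 and 0.0803 RPKM. At 24 h it had 8.48 and 11.7 RPKM in Zn4 cells, against 0.184 and 0.189 RPKM (5 and 6 reads) in WT cells. No group overlapped another, and the order of the groups was Zn4 at 0 h, 24 h and 12 h, then WT at 0 h, 24 h and 12 h. The Zn4 level was 5.83% of its resting value at 12 h and 33.3% at 24 h.

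Tmem176b had 34.7 and 31.2 RPKM in resting Zn4 cells, and 0.648 and 0.539 RPKM in resting WT cells. At 12 h it had 5.52 and 6.90 RPKM in Zn4 cells, against 0 and 0.117 RPKM (0 and 8 reads) in WT cells. At 24 h it had 15.4 and 21.5 RPKM in Zn4 cells, against 0.422 and 0.224 RPKM (21 and 13 reads) in WT cells. Again no group overlapped another and the order of groups was that of Tmem176a. The Zn4 level of Tmem176b was 18.8% of its resting value at 12 h and 56.0% at 24 h, at both times a larger share than for Tmem176a.

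Both genes were called higher in Zn4 than in WT cells at both times. Tmem176a differed by 1.47 ± 0.14 at 12 h (limma adjusted p = 0.000215), at least 38.0-fold with 3 reads allowed over the WT group, and by 3.21 ± 0.14 at 24 h (adjusted p = 2.87e-06), 54.0-fold (29.9 to 109). Tmem176b differed by 2.76 ± 0.17 at 12 h (adjusted p = 2.24e-05), 91.6-fold (46.2 to 213), and by 3.86 ± 0.17 at 24 h (adjusted p = 2.87e-06), 58.4-fold (41.7 to 84.6). Without replicate 1 of Zn4 at 24 h the 24 h differences were 3.42 and 4.09, both called.

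Between 24 h and 12 h, 3 of the 5 genes were called in Zn4 cells, 2 higher and 1 lower at 24 h, where 22.6% of all tested genes were called higher and 11% lower. The 2 higher ones were the Tmem176 pair. Tmem176a rose in Zn4 cells by 1.99 ± 0.14 (limma adjusted p = 1.11e-05), a ratio of levels of 5.71 (4.65 to 7.07). Tmem176b rose by 1.42 ± 0.17 (adjusted p = 0.000236), a ratio of 2.97 (2.73 to 3.24). The Y-linked level differed along with this comparison, being high in both Zn4 libraries at 12 h and 0 at 24 h. With it as a covariate the changes were 1.96 for Tmem176a (adjusted p = 0.00282) and 1.23 for Tmem176b (adjusted p = 0.0381). In WT cells limma called 0 of the 5 genes between 24 h and 12 h, where 24% of all tested genes were called in either direction, and 1 of the 5 had an unadjusted p under 0.05. Limma-voom on the reads called 1 and a pseudocount of 0.1 called 2.

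The WT reads of the pair were few, but they too were more at 24 h than at 12 h. Tmem176a had 11 reads at 24 h and 0 at 12 h over the WT libraries, at least 4.02-fold higher, and Tmem176b had 34 and 8 reads, 4.66-fold (2.12 to 11.7). On the log2(RPKM + 1) scale these WT changes were 0.25 ± 0.14 (limma adjusted p = 0.237) and 0.32 ± 0.17 (adjusted p = 0.205). The genotype difference in the change between 12 h and 24 h was called for Tmem176a, at 1.74 ± 0.20 (adjusted p = 0.0159), where 0.786% of all tested genes were called in either direction. For Tmem176b it was 1.10 ± 0.24 (adjusted p = 0.0841). Both values turned with the scale: limma-voom on the reads gave −1.21 for Tmem176a (adjusted p = 0.621) and −1.44 for Tmem176b (adjusted p = 0.697). The Tmem176a call was also lost without replicate 2 of WT at 12 h (adjusted p = 0.0834), replicate 1 or 2 of WT at 24 h (0.133 and 0.111) or replicate 1 of Zn4 at 12 h (0.0719).

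Within each library the balance of the pair shifted with time. The RPKM of Tmem176b divided by that of Tmem176a was 1.15 and 1.03 in resting Zn4 cells, 3.47 and 3.54 at 12 h, and 1.82 and 1.83 at 24 h. The 2 libraries of each time lay close together and the times did not overlap. In WT cells it was 1.03 and 0.867 at 0 h and 2.29 and 1.18 at 24 h, from 5 to 18 reads of Tmem176a per library, and with 0 reads of Tmem176a at 12 h it could not be formed.

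**Figure D3:**
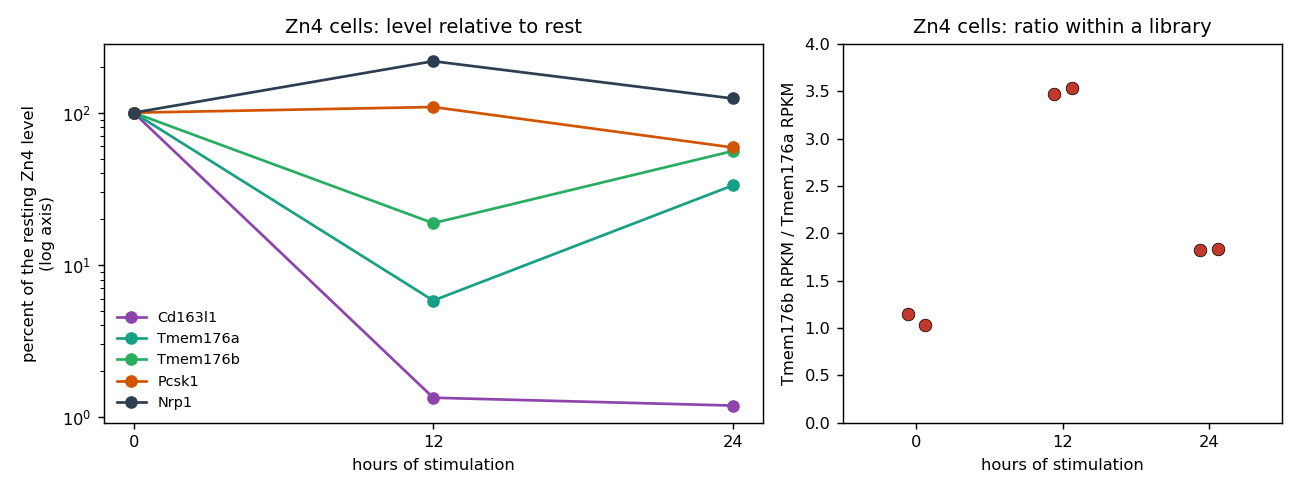
Left, level of each gene in Zn4 cells as a percent of its resting Zn4 level, on a log axis, against hours of stimulation, from the summed reads of 2 libraries per time. Cd163l1 stays at 1.34% and 1.19%, Tmem176a stands at 5.83% and then 33.3% and Tmem176b at 18.8% and then 56.0%; right, the ratio of Tmem176b to Tmem176a RPKM in each Zn4 library, highest at 12 h.

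The Gimap genes, which encode GTPases that support lymphocyte survival, form a cluster beside the Tmem176 pair. After stimulation they were lower in Zn4 than in WT cells of the same time. Of the 8 Gimap genes tested, 7 were called lower at 12 h and all 8 at 24 h, against 8.28% and 9.96% of all tested genes. Their median difference was −1.20 at 12 h and −0.94 at 24 h, beside −0.011 and −0.019 over all tested genes. Gimap3, the listed neighbour of Tmem176b at 63.0 kb, differed by −1.27 ± 0.19 (limma adjusted p = 0.00212) and −2.12 ± 0.19 (adjusted p = 0.000111). Gimap7 differed by −1.81 ± 0.15 (adjusted p = 9.91e-05) and −1.62 ± 0.15 (adjusted p = 0.00012). At 0 h the differences were −0.78 for Gimap3 and −0.94 for Gimap7. The median of the 8 genes at 0 h was −0.34, beside −0.018 over all tested genes. By mean level Gimap4 and Gimap9 were then higher in Zn4 cells, at 264 and 90.7 RPKM against 234 and 73.4 RPKM in WT cells. Within Zn4 cells, 3 of the 8 Gimap genes were called higher and 1 lower at 24 h than at 12 h. In that comparison 22.6% of all tested genes were called higher and 11% lower. On the other side, Malsu1 (227 kb from Tmem176a), Igf2bp3 (238 kb) and Tra2a (397 kb) were not called at 12 h or 24 h.

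The Tmem176 genes are also known from myeloid and dendritic cells. Of 20 markers of those cells, 6 were in the table, with summed levels of 15.4 and 20.5 RPKM in resting Zn4 cells and 15.0 and 16.7 RPKM in resting WT cells. Most of the resting sum was Cst3, with means of 12.1 RPKM in Zn4 and 13.4 RPKM in WT cells. Itgam had 1.10 against 0.185 RPKM, Irf8 1.01 against 0.331 RPKM and Cd68 3.67 against 1.84 RPKM at rest, with overlapping libraries for Cd68. Zbtb46 had 0.103 against 0.115 RPKM, and Batf3 0 RPKM in both. The sums were 54.0 and 64.0 RPKM in Zn4 and 56.6 and 44.2 RPKM in WT cells at 12 h. At 24 h they were 106 and 120 RPKM in Zn4 and 65.0 and 65.2 RPKM in WT cells. Of the 6, 1 was called higher in Zn4 cells at 12 h (Batf3) and 4 at 24 h (Batf3, Zbtb46, Irf8 and Cst3), while Cd68 and Itgam differed by −0.49 and −0.08 at 24 h and were not called. The shares called higher over all tested genes were 4.85% at 12 h and 9.4% at 24 h. Irf8 and Batf3 are also known from activated T cells. The part of such cells in the Tmem176 levels was not tested.

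Pcsk1 kept the widest gap between the genotypes after stimulation at 12 h, on the log2(RPKM + 1) scale, among the 5 genes. It had 14.5 and 38.4 RPKM in resting Zn4 cells, and 0.361 and 1.02 RPKM in resting WT cells. At 12 h it had 26.4 and 31.7 RPKM in Zn4 cells, against 0.648 and 0.619 RPKM in WT cells. At 24 h it had 16.5 and 14.9 RPKM in Zn4 cells, against 0.242 and 0.272 RPKM in WT cells. By mean level the Zn4 groups ran 12 h, 0 h, 24 h, the resting group overlapped both others, and every Zn4 library was above every WT library. At rest replicate 2 was the higher one in both genotypes, by more than a factor of 2. Cd4 was also higher in replicate 2 at rest, with 0.776 and 1.88 RPKM in Zn4 and 0.136 and 2.09 RPKM in WT cells, and its part in the Pcsk1 values was not tested.

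The Zn4 level of Pcsk1 was 46.0 times the WT level at 12 h (38.3 to 55.7) and 60.9 times at 24 h (45.2 to 84.0). The differences of 4.20 ± 0.36 (limma adjusted p = 0.000129) and 3.73 ± 0.36 (adjusted p = 0.000171) ranked 4 and 18 among all tested genes. In Zn4 cells the 24 h level was 0.541 times the 12 h level (0.516 to 0.567), a change of −0.84 ± 0.36 that was not called (adjusted p = 0.0991). It was called when the resting libraries, with their wide spread, were left out of the fit (adjusted p = 0.00109). The WT change of −0.38 ± 0.36 was not called (adjusted p = 0.497), and the genotype difference in change was −0.47 ± 0.50 (adjusted p = 0.824).

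**Figure D4:**
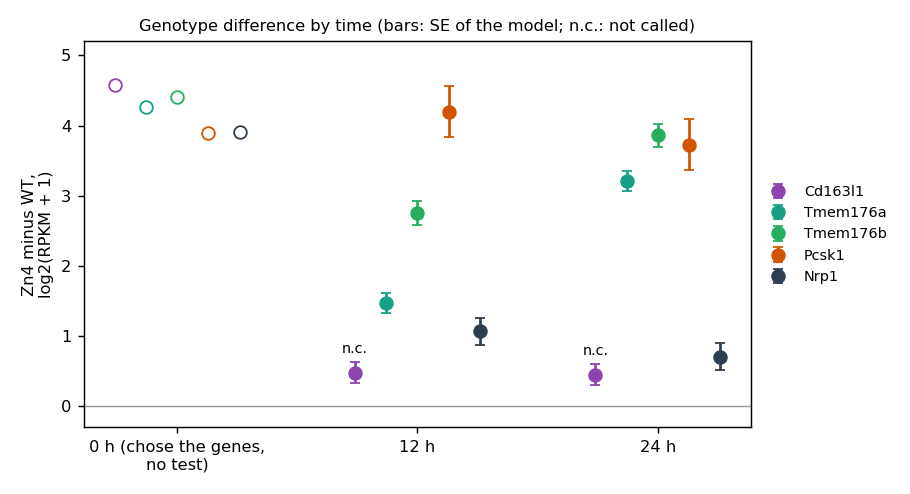
Zn4 minus WT difference of log2(RPKM + 1) for the 5 genes at each time; open circles at 0 h describe the contrast that chose the genes, and filled points carry the SE of the model, with n.c. for values not called. Pcsk1 stays at 4.20 and 3.73, the Tmem176 pair is at 1.47 and 2.76 at 12 h and 3.21 and 3.86 at 24 h, Nrp1 at 1.07 and 0.71, and Cd163l1 at 0.48 and 0.45.

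Of 7 other genes of prohormone processing tested, 2 were called higher in Zn4 cells at 12 h, and 3 were higher and 1 lower at 24 h. Over all tested genes, 4.85% were called higher at 12 h, and 9.4% higher and 9.96% lower at 24 h. The medians were 0.03 and 0.22, beside −0.011 and −0.019 over all tested genes. Furin, the convertase of the general secretory pathway, had 23.5 ± 2.75 RPKM in Zn4 and 10.6 ± 0.13 RPKM in WT cells at 12 h (SD, n = 2 each), a difference of 1.07 ± 0.15 (limma adjusted p = 0.00197), and differed by 1.53 ± 0.15 at 24 h (adjusted p = 0.000239). Penk, which encodes the enkephalin precursor, differed by 1.22 ± 0.22 at 12 h (adjusted p = 0.00674) and 3.16 ± 0.22 at 24 h (adjusted p = 3.26e-05), when it had 13.7 ± 4.61 RPKM in Zn4 and 0.607 ± 0.18 RPKM in WT cells (SD, n = 2 each). Pomc, a precursor that the Pcsk1 enzyme cuts, was higher at 24 h by 0.53 ± 0.15 (adjusted p = 0.0387). Pcsk4 was lower at 24 h, by −0.52 ± 0.11 (adjusted p = 0.00819).

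Pcsk1 lies at chr13:75089826-75134861 on the plus strand, 281 kb from Cast, its nearest listed gene. Ell2, a transcription elongation factor gene 572 kb away, was higher in Zn4 cells by 1.08 ± 0.19 at 12 h (limma adjusted p = 0.00512) and 1.24 ± 0.19 at 24 h (adjusted p = 0.002). Glrx, a glutaredoxin gene at 705 kb, was lower, by −0.93 ± 0.20 (adjusted p = 0.0158) and −1.77 ± 0.20 (adjusted p = 0.000433). At 24 h Cast was higher by 0.78 ± 0.15 (adjusted p = 0.00558), Erap1 lower by −0.48 ± 0.12 (adjusted p = 0.0198) and Gm4149 lower by −0.90 ± 0.26 (adjusted p = 0.0393).

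Nrp1 was the gene whose level in stimulated WT cells came near that of resting Zn4 cells. It had 15.6 and 19.7 RPKM in resting Zn4 cells, and 0.245 and 0.221 RPKM in resting WT cells. At 12 h it had 35.5 and 41.7 RPKM in Zn4 cells, against 16.4 and 19.3 RPKM in WT cells. At 24 h it had 17.3 and 26.5 RPKM in Zn4 cells, against 12.7 RPKM in both WT libraries. In WT cells the 12 h level was 77.5 times the resting level (61.1 to 99.7) and the 24 h level 54.4 times (42.9 to 70.0), whereas Zn4 cells stood at 218% and 124% of rest. Stimulated WT cells at 12 h overlapped with resting Zn4 cells and with Zn4 cells at 24 h.

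The gap between genotypes in Nrp1 was smaller than for the Tmem176 pair and Pcsk1 but past the threshold. Zn4 cells held 2.14 times the WT level at 12 h (2.07 to 2.20), a difference of 1.07 ± 0.19 (limma adjusted p = 0.00493). At 24 h they held 1.72 times (1.66 to 1.79), a difference of 0.71 ± 0.19 (adjusted p = 0.0251). The 24 h call was lost without replicate 1 or 2 of WT at 24 h (adjusted p = 0.121 in each case) and without replicate 2 of Zn4 at 24 h (0.42, adjusted p = 0.11). Nrp1 was the gene called lower at 24 h than at 12 h in Zn4 cells, by −0.82 ± 0.19 (adjusted p = 0.00835), a call lost without replicate 2 of Zn4 at 12 h (−0.70, adjusted p = 0.0606). With the summed Y-linked level as a covariate this change was −1.06 (adjusted p = 0.0853). In WT cells it was −0.46 ± 0.19 (adjusted p = 0.107), and the genotype difference in change was −0.36 ± 0.26 (adjusted p = 0.687).

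Neuropilin-1 pairs with plexins as a receptor of class 3 semaphorins. The semaphorins named here are of other classes, and whether they bind neuropilin-1 was not tested. Of 12 plexin, semaphorin and related genes tested, 4 were called higher and 1 lower in Zn4 cells at 12 h, and 5 higher and 1 lower at 24 h. Of all tested genes, 4.85% were called higher and 8.28% lower at 12 h, and 9.4% and 9.96% at 24 h. The medians were 0.13 and 0.20, beside −0.011 and −0.019 over all tested genes. The semaphorin gene Sema4c had 32.6 ± 4.10 RPKM in Zn4 and 3.04 ± 0.31 RPKM in WT cells at 12 h (SD, n = 2 each), a difference of 3.05 ± 0.18 (limma adjusted p = 1.9e-05), and differed by 2.77 ± 0.18 at 24 h (adjusted p = 1.96e-05). Sema7a, a membrane-anchored semaphorin that binds integrins, had 158 ± 11 RPKM in Zn4 and 41.3 ± 1.27 RPKM in WT cells at 12 h (SD, n = 2 each) and differed by 1.91 ± 0.19 (adjusted p = 0.00026), and by 2.51 ± 0.19 at 24 h (adjusted p = 4.26e-05). Sema6a had 412 and 565 reads in Zn4 cells at 12 h and 24 h and 0 reads in WT cells at both times, at least 142-fold and 196-fold higher with 3 reads allowed over the WT group. Sema4a was not called at 12 h (0.03 ± 0.21, adjusted p = 0.961). At 24 h it had 6.82 ± 2.38 RPKM in Zn4 and 1.16 ± 0.0972 RPKM in WT cells (SD, n = 2 each), a difference of 1.82 ± 0.21 (adjusted p = 0.000422). The plexin gene Plxna3 was the one called lower, by −0.65 ± 0.10 at 12 h (adjusted p = 0.00338) and −0.40 ± 0.10 at 24 h (adjusted p = 0.0263).

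Of 10 genes tested for ligands and receptors of the VEGF and TGF-beta families, which neuropilin-1 can also bind, 2 were called higher at 12 h and 4 at 24 h. The shares called higher over all tested genes were 4.85% and 9.4%. The growth factor gene Tgfb2 had 4.37 ± 0.133 RPKM in Zn4 and 0.0598 ± 0.0230 RPKM in WT cells at 12 h (SD, n = 2 each), a difference of 2.34 ± 0.33 (limma adjusted p = 0.00162), and differed by 2.85 ± 0.33 at 24 h (adjusted p = 0.000428). Vegfa, a ligand of neuropilin-1, was higher at 24 h by 1.41 ± 0.26 (adjusted p = 0.00576), with 5.60 ± 2.38 RPKM in Zn4 and 1.41 ± 0.111 RPKM in WT cells (SD, n = 2 each). Lrrc32, which encodes a surface anchor of latent TGF-beta, was higher at 24 h by 1.13 ± 0.27 (adjusted p = 0.0164). The medians of the list were 0.24 and 0.26, beside −0.011 and −0.019 over all tested genes.

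Nrp1 lies at chr8:128358604-128503363 on the plus strand, and its nearest listed gene was Itgb1 at 182 kb, which encodes the integrin beta-1 chain. Itgb1 had 60.6 ± 0.133 RPKM in Zn4 and 23.3 ± 0.66 RPKM in WT cells at 12 h (SD, n = 2 each), a difference of 1.34 ± 0.07 (limma adjusted p = 1.45e-05), and differed by 1.32 ± 0.07 at 24 h (adjusted p = 1.14e-05). Because Nrp1 also marks regulatory T cells, markers of regulatory and CD4 T cells were read beside it. Of 11 markers, 9 were in the table, and Foxp3 and Zbtb7b were not. The sums of the 9 were 76.7 and 75.3 RPKM in Zn4 and 52.6 and 47.7 RPKM in WT cells at rest. At 0 h, 2 of the 9 were called higher in Zn4 cells and 0 lower, where 3.76% of all tested genes were called higher. At rest Ikzf2 had 8.97 ± 2.1 RPKM in Zn4 and 2.76 ± 1.23 RPKM in WT cells, and Ikzf4 had 7.17 ± 0.804 and 3.03 ± 0.157 RPKM (SD, n = 2 each). The largest resting mean of the 9 was that of Ctla4. It had 37.9 ± 11.8 RPKM in Zn4 and 24.4 ± 12.0 RPKM in WT cells (SD, n = 2 each), with overlapping libraries. The sums were 187 and 197 RPKM in Zn4 and 145 and 135 RPKM in WT cells at 12 h, and 320 and 249 RPKM in Zn4 and 170 and 173 RPKM in WT cells at 24 h. Most of these stimulated sums was Il2ra, with means of 147 and 194 RPKM in Zn4 and 101 and 107 RPKM in WT cells at 12 h and 24 h. Ctla4, Cd40lg and Gpr83 had lower means in Zn4 than in WT cells at 24 h, with 7.94 against 15.3 RPKM for Ctla4. Of the 9, 1 was called lower in Zn4 cells at 12 h (Gpr83), and 4 higher (Il2ra, Ikzf2, Ikzf4 and Lrrc32) and 1 lower (Gpr83) at 24 h. Over all tested genes, 8.28% were called lower at 12 h, and 9.4% higher and 9.96% lower at 24 h. Il2ra, Ctla4 and Tnfrsf18 of this list are also known from activated CD8 T cells, and the part of such cells in the Nrp1 levels was not tested.

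After stimulation the calls among other scavenger receptor cysteine-rich genes and MS4A genes were all for lower levels in Zn4 cells. Of 5 further scavenger receptor genes tested, 2 were called lower at 12 h and 1 at 24 h, where 8.28% and 9.96% of all tested genes were. The 5 included 5830411N06Rik, which was below 1 RPKM after stimulation, where a call was hardly possible. Its mean level was higher in Zn4 than in WT cells, at 0.187 against 0.0113 RPKM at 12 h and 0.348 against 0.0319 RPKM at 24 h. Cd5, a surface protein that damps T cell receptor signals, was lower by −0.64 ± 0.09 (limma adjusted p = 0.00199) and −0.43 ± 0.09 (adjusted p = 0.0103). Of 5 MS4A genes tested, 2 were called lower at each time. Ms4a6b was lower by −0.39 ± 0.09 (adjusted p = 0.0231) and −1.03 ± 0.09 (adjusted p = 0.000118). The medians were −0.43 and −0.39 for the scavenger receptor genes and −0.45 and −0.68 for the MS4A genes, at 12 h and 24 h.

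Of 7 genes tested from a list of type 3 lymphocytes, the cells that are known for Cd163l1 and the Tmem176 pair, 2 were called higher at 12 h, and 3 higher and 2 lower at 24 h. Over all tested genes, 4.85% were called higher at 12 h, and 9.4% higher and 9.96% lower at 24 h. The cytokine receptor gene Il18r1 was higher by 1.47 ± 0.19 (limma adjusted p = 0.00106) and 1.17 ± 0.19 (adjusted p = 0.00275). Ahr, a ligand-activated transcription factor, was higher by 1.08 ± 0.21 (adjusted p = 0.00895) and 0.69 ± 0.21 (adjusted p = 0.0486). The chemokine receptor gene Cxcr6 was lower at 24 h, by −1.30 ± 0.22 (adjusted p = 0.0036).

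Across the 12 libraries the 5 genes were alike in part. Pearson's r of log2(RPKM + 1) was 0.966 between Tmem176a and Tmem176b, 0.895 between Tmem176b and Pcsk1, 0.82 between Cd163l1 and Tmem176a and 0.112 between Cd163l1 and Nrp1. These describe 12 libraries of 6 groups and share the genotype contrast that chose the genes. Among 3196 genes whose highest and lowest library differed by at least 2 on the log2 scale, the 3 most like Cd163l1 were Olfr524 (0.992), Nacc2 (0.989) and Ctnnd2 (0.985). Kirrel (0.983), Gucy1b3 (0.977) and Trim16 (0.975) were most like Tmem176a, and Cyp4f16 (0.996), Ctnnd1 (0.978) and Gucy1b3 (0.977) most like Tmem176b.

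Cyp4f16, a cytochrome P450 gene, had 5.28 ± 0.322, 1.85 ± 0.0532 and 3.18 ± 0.648 RPKM in Zn4 cells at 0 h, 12 h and 24 h, and 0.428 ± 0.127, 0.119 ± 0.0141 and 0.314 ± 0.0968 RPKM in WT cells (SD, n = 2 each), the order of levels seen in the Tmem176 pair. Most like Nrp1 was Spry2 (0.95), which encodes an inhibitor of growth factor signalling. Spry2 had 9.18 ± 0.241, 62.4 ± 10.2 and 34.3 ± 0.12 RPKM in Zn4 cells at 0 h, 12 h and 24 h, and 0.334 ± 0.084, 27.2 ± 0.345 and 16.2 ± 0.0124 RPKM in WT cells (SD, n = 2 each). Gm17641 (0.939) and 1110032F04Rik (0.913) followed. Most like Pcsk1 were 2810025M15Rik (0.963), Ctnnd1 (0.956) and Mmp14 (0.940).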

How the data were processed

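RNA was sequenced as stranded single-end mRNA libraries from 12 samples, 2 per group, per the labels' protocols. The authors deposited 1 table of RPKM values for the 12 libraries. TopHat2 2.0.12 and HTSeq 0.6.1 are named with mm10 and GRCm38 in the submitters' processing notes. The table held 12892 lines and 12885 symbols, and the earlier line of 7 repeated symbols was kept. RPKM steps gave whole reads for all 12885 genes (100%, tolerance 0.02 reads), from which library totals, counting intervals and floors of 3 reads were computed. The share of reads in listed genes was 73.8% to 86.0%.

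Genes reaching 1 RPKM in 2 or more libraries (12726 genes) were tested. Their log2(RPKM + 1) values entered 1 linear model of 6 group means in limma 3.58.1 under R 4.3.3, with variances moderated along a trend with expression and 6 residual degrees of freedom. P-values were Benjamini-Hochberg adjusted over all tested genes in each comparison, with a threshold of 0.05. The fit was run on simulated data for Zn4 against WT at 12 h only, with changes placed in well-expressed genes. That run does not cover levels below 1 RPKM, nor replicates as far apart as those of Pcsk1 at rest. The 0 h contrast, which chose the 5 genes, was fitted for ranks and shares of called genes, and its p-values for them are not used.

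The 5 genes and the lists were chosen with earlier results of these data known. Named genes are the 5, at most 3 called genes with the largest difference per list and comparison, the 3 listed neighbours on each side, the 3 genes most alike by Pearson's r, and check genes. Ccr7, Xist, the markers named by cell type, Gimap4, Gimap9, Pcsk4, Plxna3, Cd4, Tcrg-C1, Tcrg-C2 and Tcrg-C4 were added after their values were seen. The alternatives tried were a filter at 5 RPKM or none, a pseudocount of 0.1, median-ratio scaling, quantile normalization, robust empirical Bayes, the 8 stimulated libraries alone, limma-voom on the reads, replicate blocks, a Y-linked covariate and leaving out each library.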

Additional observations from a re-analysis of the deposited data

Results flagged for a closer look

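The change of Tmem176a between 12 h and 24 h differed between the genotypes. In Zn4 cells it changed by 1.99 on the log2(RPKM + 1) scale and in WT cells by 0.25, a difference of 1.74 ± 0.20 by the interaction term (limma adjusted p = 0.0159). As a ratio of levels the Zn4 change was 5.71 and the WT change at least 4.02, from 11 reads at 24 h and 0 reads at 12 h. The call was lost with a pseudocount of 0.1 RPKM (0.92, adjusted p = 0.239), and limma-voom on the reads gave a difference of the opposite sign (−1.21, adjusted p = 0.621).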

How the results depend on the processing

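The calls of Tmem176a, Tmem176b and Pcsk1 in Zn4 against WT at 12 h and 24 h, of Nrp1 at 12 h, and of both Tmem176 genes in Zn4 cells at 24 h against 12 h held under every alternative run. Genes under 1 RPKM depend on the pseudocount, and 2 libraries per group limit every test. Where a value changed its side of the threshold or its sign, the cause was not tested unless named.

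Cd163l1 in Zn4 against WT was called at 12 h and 24 h with a pseudocount of 0.1 (1.90 and 1.96) and limma-voom (3.27 and 3.63), and at 12 h with quantile normalization (0.51). With a pseudocount of 0.1 the WT change between 12 h and 24 h was called for Tmem176a (1.52) and Tmem176b (1.48), 2 of the 5 genes in place of 0, and the genotype difference in change was 0.92 for Tmem176a (0 of 5 called in place of 1), 0.05 for Cd163l1 and 0.16 for Pcsk1, both of the opposite sign to the reported −0.03 and −0.47. With limma-voom the WT change was 3.70 for Tmem176a (1 of 5 called) and the genotype difference was 0.36 for Cd163l1, −1.21 for Tmem176a, −1.44 for Tmem176b and 0.39 for Pcsk1 (0 called). Quantile normalization called the WT change of Nrp1 (−0.55). With only the 8 stimulated libraries Pcsk1 was called at 24 h against 12 h in Zn4 (−0.84) and WT cells (−0.38), and Tmem176a lost its genotype difference (1.74). Cd163l1 then fell below the filter, as it did without either Zn4 library of 0 h. The Y-linked covariate ended the Nrp1 call at 24 h against 12 h in Zn4 cells (−1.06) and the Tmem176a genotype difference (1.73).

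The labels do not say that replicate numbers pair the libraries, and deviations from group means correlated across genotypes at 0.61 at 0 h, 0.192 at 12 h and 0.0429 at 24 h. A replicate block shared by all groups called the WT change of Nrp1 (−0.46, 1 of 5 called). A block within each time point called Cd163l1 in Zn4 against WT at 24 h (0.45) and Pcsk1 at 24 h against 12 h in Zn4 cells (−0.76), and gave 0.03 and 0.06 for the change of Cd163l1 in Zn4 and WT cells, against −0.04 and −0.01. The blocks ended no call of the 5 genes.

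Leaving out each library in turn moved Cd163l1 in Zn4 against WT between 0.25 and 0.70 at 12 h and 0.34 and 0.55 at 24 h (adjusted p from 0.0265 to 0.379 and from 0.0312 to 0.244, called in 1 and 2 of 10 fits), its change between 12 h and 24 h between −0.26 and 0.18 in Zn4 and −0.03 and 0.01 in WT cells, and its genotype difference between −0.25 and 0.20. Nrp1 ranged from 0.42 to 1.01 in Zn4 against WT at 24 h, from −1.11 to −0.52 for the change in Zn4 cells and from −0.57 to −0.35 in WT cells. Pcsk1 ranged from −0.97 to −0.72 for the change in Zn4 cells, and the Tmem176a genotype difference from 1.53 to 1.96. Members called ranged from 0 to 1 in the WT change and in the genotype difference.

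Counts over all genes moved as well. Zn4 against WT called 1671 genes at 12 h, 2644 with the time-point block, 892 with the Y-linked covariate and 737 to 1837 with a library left out. At 24 h it called 2464 genes, 3794 with that block and 1045 to 2771 with a library left out, 1142 of them without replicate 1 of Zn4 at 24 h. The change between 12 h and 24 h called 4273 genes in Zn4 cells and 3052 in WT cells, and 847 and 1511 with the covariate, with lowest counts of 2413 and 1285 when a library was left out. The genotype difference called 100 genes, and 0 to 216 under the alternatives that kept every library and 1 to 366 with a library left out.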
